A study of Mus musculus with 12 samples.

Results

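The cerebral cortex of STING cKO mice was compared between the struck side and the opposite side of the brain 2 hr after CCI, controlled cortical impact, which injures the brain through an opening in the skull with a driven piston. All libraries that the labels give as cKO were used, which is 6 of the 12 libraries of the series. They comprise 3 ipsilateral libraries, from the struck side, and 3 contralateral libraries, from the opposite side. The cKO mice carried the genotype CX3CR1cre-er/+ STING fl/fl, and the Cre control mice, called wt here, carried CX3CR1cre-er/+ alone; all received CCI and were sampled at the same time. The wt libraries, 3 from each side, entered the same model and are given only where the responses were set against each other. The series design text writes the Cre allele of the floxed animals as CX3CR1cre/+, without the inducible part, and neither source mentions tamoxifen.

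Controlled cortical impact tears vessels and depolarises neurons, and transcription in the struck tissue changes within minutes to hours. Immediate early genes, which need no new protein for their induction, come first. Tissue cells then make cytokines and chemokines through NF-kB and mitogen-activated protein kinases, and endothelial cells put out selectins and integrin ligands that hold circulating neutrophils. STING is the adaptor that passes the sensing of cytosolic DNA to the kinase TBK1, to IRF3 and to NF-kB, and it is best known for inducing type I interferon. Cx3cr1, whose locus carries the Cre, is active in microglia and in monocytes, so a deletion driven by it would leave STING in neurons, astrocytes and endothelium. Each library is a piece of cortex with all of its cell types.

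The cKO libraries held between 7958931 and 33567194 counts. Ipsilateral library 3 was the shallowest with 7958931, against 25711126 or more in the other ipsilateral libraries, and 14228 genes had at least 10 counts in it, against 16365 and 16643. With every library thinned to the same total, all 6 cKO libraries had 14084 to 14310 such genes. Levels are given as CPM, counts relative to the scaled library size, log2 fold changes are ipsilateral over contralateral with their SE, and a gene is called where the adjusted p of edgeR's quasi-likelihood test was below 0.05. Nothing in the labels ties each library to its own animal, and the p values therefore reflect library-to-library spread, which may be technical. The targeted gene Tmem173, which encodes STING, was measured in every cKO library, at 1.05, 2.44 and 1.24 CPM in ipsilateral libraries 1 to 3 and 0.998, 1.96 and 0.762 CPM in contralateral libraries 1 to 3. The wt libraries had 2.34, 3.69 and 2.72 CPM ipsilaterally and 2.49, 2.63 and 3.18 CPM contralaterally. The log2 difference of cKO over wt was −0.84 ± 0.35 on the ipsilateral and −1.16 ± 0.35 on the contralateral side (unadjusted p = 0.0320 and 0.00479, adjusted p = 0.816 and 1); contralaterally every cKO library lay below every wt library, and ipsilaterally cKO library 2 lay within the wt range. The gene was not called between the sides of cKO cortex (0.39 ± 0.38, adjusted p = 0.684). Markers of cortex were abundant: the glutamate transporter gene Slc17a7 had 1434, 1456 and 1535 CPM ipsilaterally and 1650.5, 1697 and 1564 CPM contralaterally, and the deep-layer factor Fezf2 had 29.7, 31.9 and 33.1 CPM ipsilaterally and 30, 29.3 and 33.9 CPM contralaterally. The highest value of the striatal receptor genes Drd1 and Drd2 in any cKO library was 6.87 CPM. Other striatal markers were higher. The 12 genes of the striatal list together came to 419, 364 and 399 CPM in ipsilateral libraries 1 to 3 and 415, 401 and 371 CPM in contralateral libraries 1 to 3.

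On the struck side 431 genes rose, 2.56% of the 16836 tested, and 30 fell, 0.178% of them. The rises were often large: 230 were at least 2-fold, 118 at least 4-fold, 73 at least 8-fold and 49 at least 16-fold. Of the falls, 4 were at least 2-fold. The median log2 change was 1.10 over the rises and −0.38 over the falls, against −0.01 over all genes tested. Of the 431 rises, 423 had all ipsilateral libraries above all contralateral ones, an arrangement found for 10.8% of all genes tested. All 30 falls had them below, as did 11.1% of all genes tested. The rises were mostly protein-coding (415 genes), with 9 long noncoding RNAs. The number of rises was 267 without ipsilateral library 2 and 274 without contralateral library 1. The falls numbered 6 without contralateral library 1, 10 without contralateral library 2 or ipsilateral library 2, 14 without ipsilateral library 3 and 15 without ipsilateral library 1; without wt contralateral library 3, which shares the estimate of spread, they numbered 58. With trends of GC content and transcript length removed, 493 rose and 303 fell, so that rises were 61.9% of the called genes, against 93.5% in the fit as described. Of 195 rises followed singly, 144 stayed called whichever library was left out, and of the 30 falls 2 did. The 195 were picked partly for small p or large change or after their values were seen, so they do not stand for all 431 rises.

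**Figure D1:**
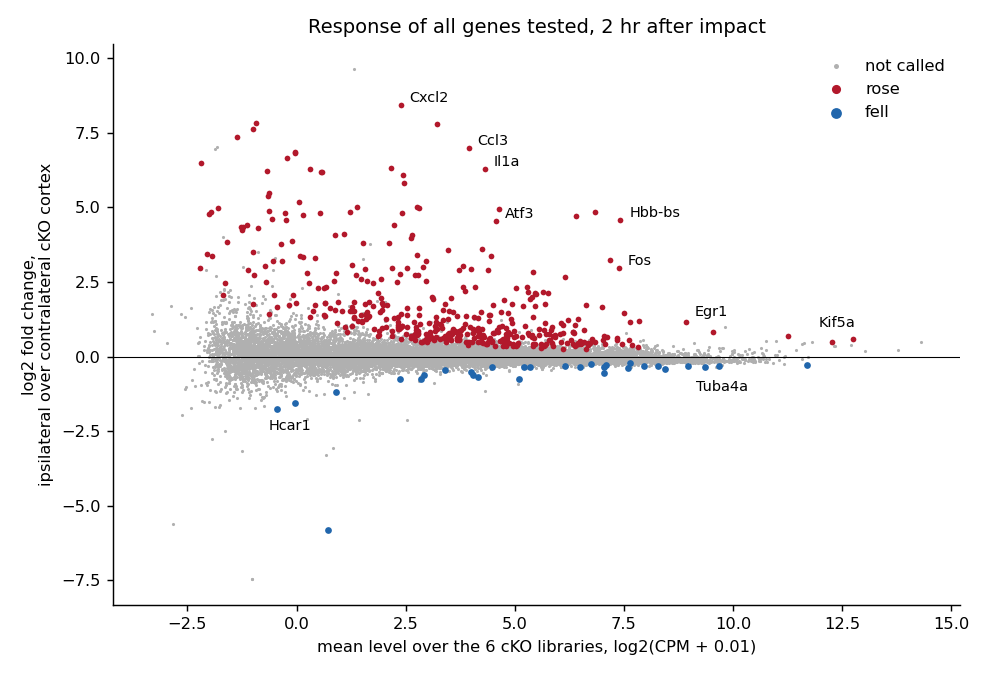
Each point is 1 of the 16836 genes tested, with its mean level over the 6 cKO libraries on the x axis, as log2 of CPM plus 0.01, and its log2 fold change on the y axis, ipsilateral over contralateral. The 431 rises reach high folds at low and middle levels, while most of the 30 falls lie close to 0; fitted folds of genes with few contralateral counts depend on the model's prior count and are no measure of size.

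Transcription factors of the immediate early class rose almost as a whole: 25 of 28 rose and none fell, with a median log2 change of 1.46. Atf3, a stress-induced factor of the ATF family, had 39.1, 40 and 58.2 CPM in ipsilateral libraries 1 to 3, against 1.64, 1.58 and 2.67 CPM in contralateral libraries 1 to 3. Npas4, which neurons induce on calcium entry, had 66.8, 108 and 193 CPM ipsilaterally and 15.7, 20.3 and 21.6 CPM contralaterally. Fosb, a partner of Jun in the AP-1 dimer, had 209, 259 and 322 CPM ipsilaterally and 23.1, 25.1 and 36.5 CPM contralaterally. For these 3 genes the sides were far apart, and library 3 was the highest on both sides. Their log2 changes were 4.55 ± 0.20, 2.66 ± 0.29 and 3.23 ± 0.21 (adjusted p = 7.06e-09, 3.5e-05 and 1.6e-07).

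Every measured member of the Fos and Jun families that was on the list was called. Fos rose by 2.96 ± 0.13, Fosl2 by 1.06 ± 0.22, Jun by 1.73 ± 0.12, Junb by 1.66 ± 0.15 and Jund by 0.56 ± 0.11. Fosl1 had 44, 25 and 9 counts in ipsilateral libraries 1 to 3 against 3 counts in all contralateral libraries together, a ratio of 33.6 (95% exact interval 11.1 to 166). The zinc-finger factors Egr1, Egr2 and Egr4 rose by 1.16 ± 0.25, 2.34 ± 0.39 and 1.13 ± 0.19, with Egr2 at 3.10 without contralateral library 3, whereas Egr3 was at 0.32 ± 0.20 and was not called (adjusted p = 0.511). Egr1 was already abundant on the opposite side, with 240.1, 239.9 and 421 CPM, and had 568, 587 and 861 CPM on the struck side; its call was lost without contralateral library 1 or 2 or ipsilateral library 3. Those of Jund (without contralateral library 1) and Fosl2 (without ipsilateral library 2 or 3 or contralateral library 1 or 2) were lost too, with adjusted p of at most 0.102 over these 3 genes. How strand was set when reads were counted is not given in the sources used here, so reads of a gene and of one overlapping it on the opposite strand cannot be told apart. Among the genes described, this holds for Junb, Jund, Fosl1, Nfkb2, Cxcl10, Alas2, P2ry12, Ripk1, Icam1, Mt2, Irf3, Slc15a3, Plek, Pim1, Cebpb and Cebpd as well as those where the partner is named.

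Genes that neurons switch on with activity rose in 12 of 21 cases (median 0.77). The synaptic gene Arc had 312, 299 and 347 CPM ipsilaterally and 160.03, 178 and 84.1 CPM contralaterally, so the sides did not overlap, and rose by 1.18 ± 0.20 (adjusted p = 0.00255). Nptx2, a secreted pentraxin of excitatory synapses, rose by 0.88 ± 0.13, and the small GTPases Gem and Rasd1 rose by 2.72 ± 0.22 and 0.87 ± 0.13. Ccn1, a matrix protein induced in many cell types, rose by 2.17 ± 0.25, whereas its relative Ccn2 was at −0.92 ± 0.24 (adjusted p = 0.0637). The neurotrophin Bdnf was at 0.50 ± 0.22 and Homer1 at 0.20 ± 0.24, and neither was called. Inhibitors of MAP kinase signalling rose in 9 of 16 cases (median 0.56). The phosphatase Dusp1 had 109, 128 and 132 CPM ipsilaterally and 51.6, 60.9 and 40.9 CPM contralaterally and rose by 1.26 ± 0.12 (adjusted p = 1.21e-05); it shares exonic bases with Ergic1 on the opposite strand. Dusp10 rose by 0.95 ± 0.13, Dusp2 by 1.33 ± 0.21 and Spry4, an inhibitor of growth factor signalling, by 0.95 ± 0.14.

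NF-kB subunits and their feedback inhibitors rose in 15 of 21 cases (median 1.26). Among subunits, Rel rose by 1.93 ± 0.20 and Nfkb1 by 0.91 ± 0.13; Rela and Nfkb2 were called at 0.52 ± 0.12 and 1.14 ± 0.23. The call of Rela was lost without any single cKO library other than ipsilateral 3 (highest adjusted p 0.190), and that of Nfkb2 without contralateral library 1 or 3 or ipsilateral library 1 or 2 (highest adjusted p 0.103). Relb was at 0.61 ± 0.19 and was not called. Among the feedback inhibitors Zc3h12a, Nfkbiz and Socs3 had the largest changes and Nfkbia one of the smallest. Nfkbiz, a nuclear cofactor of NF-kB, had 21.5, 20.9 and 27.4 CPM in ipsilateral libraries 1 to 3, against 3.26, 2.68 and 3.19 CPM in contralateral libraries 1 to 3. The deubiquitinase gene Tnfaip3 had 29.9, 26.2 and 29.5 CPM ipsilaterally and 5.61, 5.07 and 6.38 CPM contralaterally. Socs3, which blocks JAK signalling, had 38.2, 37.5 and 35 CPM ipsilaterally and 5.11, 4.90 and 4.71 CPM contralaterally. Within each side these 3 genes varied little, and they rose by 2.91 ± 0.15, 2.33 ± 0.15 and 2.91 ± 0.16. The cytosolic inhibitor Nfkbia rose by 0.99 ± 0.16 and Nfkbid, a nuclear protein of the same family, by 1.97 ± 0.27.

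Of 12 factors that destroy cytokine mRNAs 6 rose (median 0.66). Zfp36, which binds AU-rich elements, had 68.5, 73.1 and 82.3 CPM ipsilaterally and 9.74, 11.1 and 10.4 CPM contralaterally (2.84 ± 0.13, adjusted p = 9.7e-09). Its relatives Zfp36l1 and Zfp36l2 rose by 1.51 ± 0.20 and 1.29 ± 0.15, the endonuclease Zc3h12a by 2.96 ± 0.18, and the deadenylation cofactors Btg1 and Btg2 by 0.90 ± 0.10 and 2.12 ± 0.14.

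Of 16 cytokine ligands that passed the filter on low counts, 11 rose (median 3.19), and the filter removed 5 of the 21 on the list. Genes near absent contralaterally could pass the filter only through ipsilateral libraries. Such genes are on the cytokine, chemokine and neutrophil lists, so the counts and medians of these lists lean towards rises. Il1a had 34, 22.5 and 61.8 CPM in ipsilateral libraries 1 to 3, against 0.470, 0.0426 and 1.0 CPM in contralateral libraries 1 to 3. Il1b had 14.9, 14.6 and 11.1 CPM ipsilaterally and 0.528, 0.341 and 0.381 CPM contralaterally, and Tnf had 9.12, 6.21 and 10.9 CPM ipsilaterally and 0.0881, 0 and 0.238 CPM contralaterally. Osm, a cytokine of the interleukin 6 family, had 2.23, 2.60 and 3.48 CPM ipsilaterally and 0.0294, 0 and 0.286 CPM contralaterally. No ipsilateral library overlapped a contralateral one for these genes. For Il1a, Tnf and Osm the third library was the highest on each side, and for Il1b it was the lowest ipsilateral one. The log2 changes were 6.28 ± 0.50 for Il1a, 4.98 ± 0.30 for Il1b, 6.32 ± 0.43 for Tnf and 4.81 ± 0.59 for Osm. Without contralateral library 3 they were 6.995 for Il1a, 7.23 for Tnf and 6.91 for Osm.

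Lif, a cytokine that acts on astrocytes and neurons, had 6.63, 4.53 and 2.24 CPM ipsilaterally and 0.0587, 0.0852 and 0.381 CPM contralaterally and rose by 4.86 ± 0.68 (adjusted p = 0.000478), or by 5.98 without contralateral library 3. Csf3, the growth factor of neutrophils, had 108, 106 and 5 counts in ipsilateral libraries 1 to 3 against 3 contralateral counts, a ratio of 94.4 (95% exact interval 31.9 to 461). Il1rn, which encodes the natural antagonist of the interleukin 1 receptor, had 15, 41 and 6 counts ipsilaterally and 0 contralaterally, so it was at least 26.7-fold higher with 3 counts taken as the floor of the contralateral group. Il6 had 1.98, 0.881 and 0.124 CPM ipsilaterally and 0, 0.0852 and 0.0952 CPM contralaterally; its call (adjusted p = 0.00797) was lost without contralateral library 1 or ipsilateral library 1 (highest adjusted p 0.0761). Csf1 and Tgfb1, which are present in resting cortex, rose by 0.67 ± 0.11 and 1.09 ± 0.19. Il18 (0.13 ± 0.11), Il33 (0.18 ± 0.14) and Cntf (0.05 ± 0.49) were not called. Of 19 cytokine receptors 7 rose (median 0.49). Tnfrsf12a, the receptor of the cytokine TWEAK, rose by 1.27 ± 0.18 and Tnfrsf1a, a receptor of tumour necrosis factor, by 0.63 ± 0.11. The signalling receptor Il1r1 was at 0.15 ± 0.24 and was not called, whereas the decoy receptor Il1r2 rose by 3.31 ± 0.62; that call was lost without ipsilateral library 2 (adjusted p = 0.0541).

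Chemokines, which steer leukocytes, rose in 12 of the 15 that passed the filter (median 2.80). The neutrophil attractants Cxcl1 and Cxcl2 lie side by side on chromosome 5, and their promoter windows, from 250 bases before to 50 bases after the start of the transcript, are shown because both genes were among the 12 largest rises and both windows hold the same letters of an NF-kB motif. The windows come from RefSeq on build GRCm38.p6, plus strand, at chr5:90890995-90891294 for Cxcl1 and chr5:90903649-90903948 for Cxcl2. Capitals mark every match to the NF-kB pattern, GGG and CC with any 5 bases between them on either strand, where neighbouring matches overlap.

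Cxcl1: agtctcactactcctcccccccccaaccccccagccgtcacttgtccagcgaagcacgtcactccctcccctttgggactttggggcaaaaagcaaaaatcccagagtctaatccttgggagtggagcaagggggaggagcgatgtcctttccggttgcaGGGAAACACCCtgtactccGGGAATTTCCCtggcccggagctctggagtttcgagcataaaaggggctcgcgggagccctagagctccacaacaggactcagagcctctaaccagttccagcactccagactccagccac

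Cxcl2: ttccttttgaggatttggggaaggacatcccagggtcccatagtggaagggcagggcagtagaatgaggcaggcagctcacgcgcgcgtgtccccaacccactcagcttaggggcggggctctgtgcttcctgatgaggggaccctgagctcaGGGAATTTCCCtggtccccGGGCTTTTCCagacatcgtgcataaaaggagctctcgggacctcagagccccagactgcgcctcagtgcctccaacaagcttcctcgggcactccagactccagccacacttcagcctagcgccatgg

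The letters GGGAATTTCC begin 71 bases before the start in Cxcl1 and 97 bases before it in Cxcl2, and over their whole length the windows are identical at 24% of positions. Cxcl1 had 11.6, 14.5 and 6.22 CPM in ipsilateral libraries 1 to 3, against 0.0881, 0.298 and 0.238 CPM in contralateral libraries 1 to 3 (5.81 ± 0.42, adjusted p = 5.01e-07). Cxcl2 had 306, 323 and 58 counts in ipsilateral libraries 1 to 3 and 2 counts in all contralateral libraries together, a ratio of 444 (95% exact interval 122 to 3674). Both genes were lowest in ipsilateral library 3. Cxcl10, a ligand of the chemokine receptor CXCR3, had 5.23, 2.12 and 3.11 CPM ipsilaterally and 0.440, 0.0852 and 0 CPM contralaterally and rose by 4.06 ± 0.69, or by 6.14 without contralateral library 1. A match to this pattern is common: 66.7% of the 408 windows of rises held one, against 65.2% of the 15470 windows of all genes tested.

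Ccl3 had 30.2, 24.7 and 36.6 CPM ipsilaterally and 0.0881, 0 and 0.714 CPM contralaterally, and its neighbour Ccl4 had 20.4, 15.8 and 18.8 CPM ipsilaterally and 0.0294, 0 and 0.238 CPM contralaterally. They rose by 6.99 ± 0.52 and 7.81 ± 0.54. On the opposite side most of the signal of both came from library 3, and without it the log2 changes were 9.04 for Ccl3 and 9.68 for Ccl4. The monocyte attractants Ccl2, Ccl7 and Ccl12 rose by 4.43 ± 0.46, 3.82 ± 0.66 and 2.80 ± 0.42, and all 3 were highest contralaterally in library 3 as well; without it Ccl7 was at 5.03 and Ccl12 at 3.40. The resting-brain chemokines Cx3cl1 (−0.11 ± 0.10), Cxcl12 (−0.28 ± 0.15) and Cxcl14 (0.23 ± 0.10) were not called.

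**Figure D2:**
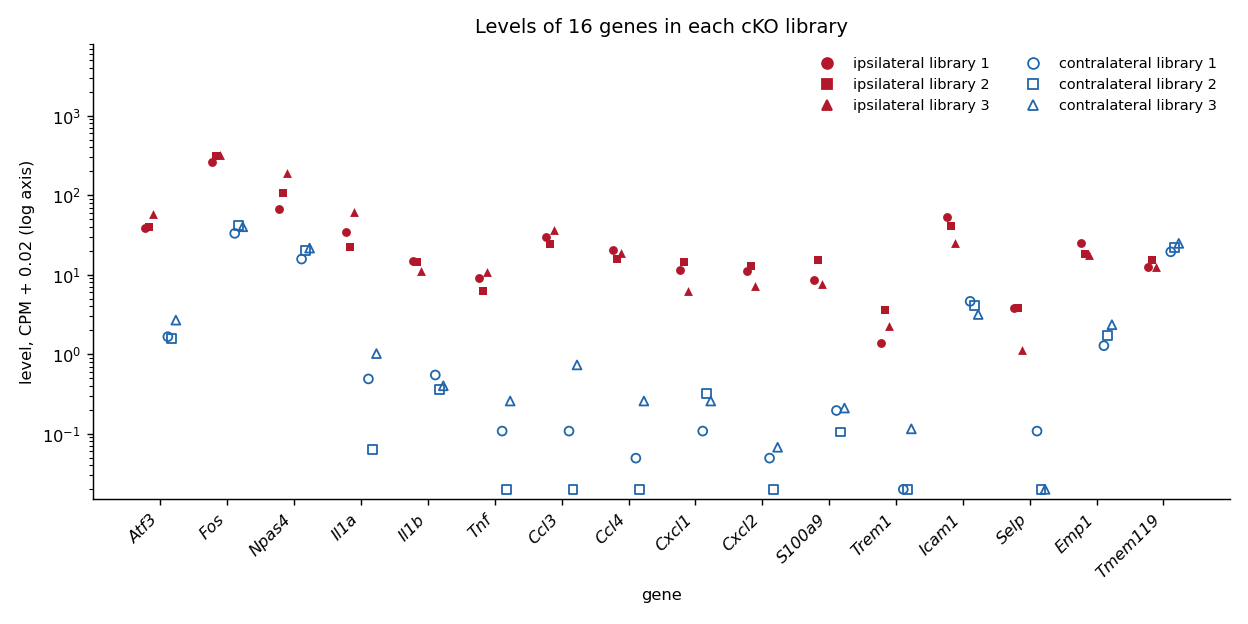
Points are the levels of 16 genes in each of the 6 cKO libraries, as CPM plus 0.02 on a log axis, with ipsilateral libraries filled and contralateral ones open, and shapes for library numbers. The sides do not overlap for any of these genes, Tmem119 is the one with lower ipsilateral levels, and for Il1a, Tnf and Ccl3 the triangles of library 3 are highest on both sides.

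Transcripts of circulating neutrophils were higher on the struck side. Of 16 neutrophil markers that passed the filter 14 rose; the median log2 change was 4.72, or 4.48 with members absent contralaterally held at their lower bound. In a bulk library more cells of a type and more RNA per cell cannot be told apart. S100a9, a calcium-binding protein that fills neutrophil cytoplasm, had 8.65, 15.5 and 7.71 CPM in ipsilateral libraries 1 to 3, against 0.176, 0.0852 and 0.190 CPM in contralateral libraries 1 to 3. Its partner S100a8 had 3.93, 8.09 and 2.99 CPM ipsilaterally and 0.117, 0.128 and 0.238 CPM contralaterally. They rose by 6.11 ± 0.54 and 5.02 ± 0.70. The chemokine receptor Cxcr2, with 29, 49 and 5 ipsilateral counts against 2 contralateral counts, had a ratio of 53.6 (95% exact interval 14.4 to 450.3), and Trem1, with 38, 90 and 18 counts against 2, a ratio of 94.4 (95% exact interval 25.7 to 786). Summed over the 20 markers, the list came to 59.8, 90.6 and 34.2 CPM in ipsilateral libraries 1 to 3, against 10.5, 14.7 and 9.48 CPM in contralateral libraries 1 to 3. Library 2 was the highest on both sides and library 3 the lowest.

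Genes of immature neutrophils were scarce, since Ngp had 21 and Ltf 12 counts over the 3 ipsilateral libraries, and 3 and 9 over the contralateral ones. Markers of lymphocytes were at the limit of detection: 9 of 12 were removed by the filter, and the T-cell genes Cd3e and Cd8a had 6 and 2 counts over the ipsilateral libraries, against 2 and 0 over the contralateral ones. The platelet chemokine Ppbp had 0.973, 2.08 and 1.74 CPM ipsilaterally and 0.0587, 0 and 0.0952 CPM contralaterally and rose by 4.82 ± 0.71, 1 of 2 rises among 10 platelet markers (median 1.11). Of 7 erythroid transcripts 5 rose. Alas2, the heme synthesis enzyme of red cell precursors, had 9.01, 12.9 and 8.71 CPM ipsilaterally and 0.176, 0.0852 and 0.952 CPM contralaterally (4.81 ± 0.77, adjusted p = 0.00155, and 6.17 on the log2 scale without contralateral library 3). Hemoglobin genes together came to 757 ± 148 CPM in ipsilateral and 31.6 ± 43.3 CPM in contralateral libraries (SD, n = 3 each), with every ipsilateral library above every contralateral one. The two-sided exact permutation p was 0.1, which is as small as 3 against 3 libraries can give. The highest contralateral hemoglobin sum, 81.6 CPM, was in library 3, against 4.71 and 8.57 CPM in libraries 1 and 2. Calls of single hemoglobin genes were lost without contralateral library 1. Those of Hba-a1, Hba-a2 and Hbb-bs were also lost without contralateral library 2 or ipsilateral library 2, and some without further libraries (adjusted p up to 0.173). Reads of these genes are divided between near-identical copies. How far red cell and platelet transcripts in the tissue bear on the neutrophil values was not tested. Of 13 monocyte and macrophage markers that passed the filter 2 rose, which is 15.4%, against 2.56% of all genes tested (median 0.54). Cd14 rose by 3.62 ± 0.23 and the platelet and macrophage protein gene Thbs1 by 3.03 ± 0.28. Ccr2 and Ly6c2, which mark blood monocytes, had 16 and 15 counts over the ipsilateral libraries, against 2 and 4 over the contralateral ones. The filter removed both, so the count of rises and the median leave them out.

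Homeostatic microglia genes had a median log2 change near 0. Of 22 such genes none rose and 1 fell, and the median was 0.04. Over all genes tested 2.56% rose and 0.178% fell, so a list of this size with no rise is near the background. Tmem119, a surface protein of resident microglia, had 12.5, 15.4 and 12.6 CPM ipsilaterally and 19.4, 21.9 and 24.8 CPM contralaterally, without overlap (−0.69 ± 0.13, adjusted p = 0.00797, and 0.0614 without ipsilateral library 1). The purinergic receptor gene P2ry12 was at −0.47 ± 0.17 and Cx3cr1 at −0.24 ± 0.12 (adjusted p = 0.209 and 0.412); Cx3cr1 had 14.1, 19.8 and 18.3 CPM ipsilaterally and 18.3, 21.3 and 21.7 CPM contralaterally. Some innate receptor genes were called as rises. Of 17 pattern receptors 5 rose (median 0.49), among them Tlr2, which senses bacterial lipoproteins, by 3.40 ± 0.36 (4.27 without contralateral library 1), Tlr13 by 1.64 ± 0.16 and the lectin Clec7a by 3.78 ± 0.58. Of 17 complement genes 2 rose, and both encode anaphylatoxin receptors. C5ar1 had 12.1, 13.7 and 8.96 CPM ipsilaterally and 0.616, 0.810 and 0.857 CPM contralaterally (3.98 ± 0.21), and C3ar1 had 14.2, 13.3 and 11.9 CPM ipsilaterally and 1.53, 1.75 and 1.67 CPM contralaterally (3.01 ± 0.16). The precursor C3 was at 2.26 ± 0.63 and was not called (adjusted p = 0.0792). Nlrp3, the inflammasome sensor, rose by 4.06 ± 0.33 and the inflammatory caspase gene Casp4 by 2.80 ± 0.41, with Ripk1 at 0.71 ± 0.12 the third of 3 rises among 14 inflammasome and lytic death genes.

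Receptors for metabolites moved in both directions. Gpr84, a receptor of medium-chain fatty acids on myeloid cells, had 18.2, 10.3 and 11.2 CPM ipsilaterally and 0.499, 0.341 and 0.333 CPM contralaterally (5.03 ± 0.34, adjusted p = 2.27e-07); it overlaps Gm49482 on the opposite strand. Acod1, which makes itaconate in activated myeloid cells, had 45, 87 and 5 counts ipsilaterally against 1 contralaterally, a ratio of 177 (95% exact interval 31.3 to 7045). Hcar1, the lactate receptor, fell, with 0.324, 0.440 and 0.124 CPM ipsilaterally and 1.17, 1.07 and 1.24 CPM contralaterally (−1.77 ± 0.35, adjusted p = 0.00859, and 0.0586 without ipsilateral library 1). The related receptor Hcar2, which is also on the neutrophil list, had 21, 33 and 4 counts against 3, a ratio of 25 (95% exact interval 8.14 to 125).

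On the endothelial activation list 12 of 19 genes rose (median 1.0), whereas 1 of 21 endothelial and mural identity genes rose (median 0.09). Over all genes tested 2.56% rose. Which cells of the tissue made these transcripts was not tested. Icam1, the adhesion molecule for leukocyte integrins, had 53.8, 41.3 and 25 CPM in ipsilateral libraries 1 to 3, against 4.61, 4.05 and 3.14 CPM in contralateral libraries 1 to 3 (3.36 ± 0.23). Selp, which encodes P-selectin, had 106, 94 and 9 counts ipsilaterally against 3 contralaterally, a ratio of 90 (95% exact interval 30.4 to 440.2), and Sele, which encodes E-selectin, 46, 35 and 5 counts against 1, a ratio of 111 (95% exact interval 19.4 to 4441). Vcam1 rose by 0.77 ± 0.14. For Icam1, Selp and Sele ipsilateral library 3 was the lowest on its side. On the same list Plau, the urokinase, rose by 2.74 ± 0.21, its receptor Plaur by 3.19 ± 0.25 and Plat, the tissue plasminogen activator, by 0.63 ± 0.15; the call of Plat was lost without contralateral library 1 or 3 or ipsilateral library 1 or 2 (highest adjusted p 0.194). Apold1, an early gene of endothelium, rose by 1.94 ± 0.12 and the protease Adamts1 by 2.33 ± 0.17. The identity genes Pecam1 (0.38 ± 0.13) and Vwf (−0.02 ± 0.17) were not called.

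Astrocyte identity genes were all on the positive side, 15 of 15 with a median of 0.22, against 48.6% of all genes tested. The factor Sox9 (0.77 ± 0.14) was the 1 that was called. Of 22 reactive astrocyte genes 7 rose (median 0.98), including Emp1 at 3.59 ± 0.22 and Ptgs2 at 2.16 ± 0.18. Ptgs2, which makes prostaglandins and which neurons also induce, had 55.6, 74 and 64.4 CPM ipsilaterally and 12.4, 16.8 and 14.3 CPM contralaterally. Hp, which encodes the hemoglobin-binding protein haptoglobin and was among the 12 largest rises, had 1.59, 3.0 and 1.37 CPM ipsilaterally and 0, 0.0852 and 0.0952 CPM contralaterally (5.18 ± 0.75, or 4.43 without contralateral library 1). The C/EBP factors Cebpb and Cebpd, which drive acute-phase genes, rose by 1.63 ± 0.16 and 1.51 ± 0.20, 2 of 5 on their list (median 0.23). Lcn2, which later marks reactive astrocytes, was at 2.01 ± 0.57 and was not called at this time (adjusted p = 0.0853).

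Heat shock genes rose in 5 of 20 cases (median 0.14). The neighbours Hspa1a and Hspa1b, inducible chaperones, carry 300-base promoter windows that are identical at 296 positions, and these are shown because the pair led the list. They lie on chromosome 17, minus strand of build GRCm38.p6 (RefSeq), at chr17:34972107-34972406 for Hspa1a and chr17:34959189-34959488 for Hspa1b. Capitals mark GAANNTTC, the core of a heat shock element.

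Hspa1a: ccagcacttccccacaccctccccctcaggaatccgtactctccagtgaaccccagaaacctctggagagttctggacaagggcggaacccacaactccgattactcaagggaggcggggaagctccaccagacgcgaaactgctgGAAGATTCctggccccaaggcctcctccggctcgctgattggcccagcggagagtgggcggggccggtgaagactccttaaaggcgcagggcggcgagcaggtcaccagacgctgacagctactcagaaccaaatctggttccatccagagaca

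Hspa1b: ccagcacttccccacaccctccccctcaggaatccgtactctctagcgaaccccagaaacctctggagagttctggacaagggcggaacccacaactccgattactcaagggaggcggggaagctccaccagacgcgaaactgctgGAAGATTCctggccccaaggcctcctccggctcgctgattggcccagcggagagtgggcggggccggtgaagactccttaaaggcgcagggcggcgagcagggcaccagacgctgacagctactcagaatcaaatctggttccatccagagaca

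In both windows the match begins 104 bases before the start, and such a match was found in 6.86% of windows of rises, against 5.81% of windows of all genes tested. Hspa1a had 88.4, 118 and 57.1 CPM ipsilaterally and 19, 16.1 and 25.5 CPM contralaterally (2.14 ± 0.23), and Hspa1b had 64.8, 100.3 and 51.3 CPM ipsilaterally and 15.5, 14.3 and 21.5 CPM contralaterally (2.10 ± 0.22). RSEM has to divide reads between these near-identical genes, so the single values are uncertain. The cochaperone Bag3 rose by 0.93 ± 0.12. Dnajb1 (0.44 ± 0.10) and Cryab (0.43 ± 0.10) were called too, but Dnajb1 not without contralateral library 1 or 2 or ipsilateral library 1 or 2, and Cryab not without any single cKO library other than ipsilateral 2 (highest adjusted p 0.129 and 0.151). The constitutive chaperones Hspa8 (−0.02 ± 0.09), Hsp90ab1 (−0.02 ± 0.07) and Hspd1 (−0.06 ± 0.08) and the factor Hsf1 (−0.01 ± 0.11) were not called.

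The lists given next held 1 to 3 rises each, or 10% to 21.4% of their tested members. Over all genes tested 2.56% rose. Of 14 disease-associated microglia genes 3 rose (median 0.25), of 11 matrix proteases and inhibitors 2 (median 0.24), of 14 prostaglandin genes 2 (median −0.04), of 9 abundant noncoding RNAs 1, Neat1 (median 0.26), and of 10 oligodendrocyte precursor genes 1 (median 0.19).

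Other stress genes moved in part. Ppp1r15a, which restores translation after the integrated stress response, had 76.6, 76.4 and 86.3 CPM ipsilaterally and 22.2, 20.8 and 27.3 CPM contralaterally (1.77 ± 0.10), 1 of 2 rises among 17 genes of that response and the unfolded protein response (median 0.15). The metallothioneins Mt1 and Mt2 rose by 0.66 ± 0.09 and 0.79 ± 0.10, and heme oxygenase Hmox1 by 1.21 ± 0.19. Of 20 genes that respond to glucocorticoids 7 rose, which is 35%, against 2.56% of all genes tested (median 0.33). The 7 include Dusp1, Nfkbia and the metallothioneins, which other signals also induce. Fkbp5 (−0.40 ± 0.15), Sgk1 (0.11 ± 0.15) and Tsc22d3 (−0.02 ± 0.08), further targets of the glucocorticoid receptor, were not called. A signal that reaches both sides alike would not show in a contrast of sides, and glucocorticoid action was not tested. Vegfa rose by 0.74 ± 0.10, 1 of 2 rises among 18 targets of the hypoxia-inducible factors (median 0.22). Among cell death regulators Mcl1, which opposes apoptosis, had 102, 100.5 and 103 CPM ipsilaterally and 56, 61.9 and 56.5 CPM contralaterally (0.81 ± 0.08). The other 3 rises of that list of 19 were the paralogs Bcl2a1a, Bcl2a1b and Bcl2a1d, whose shared reads make single values uncertain. Of 18 clock genes 4 rose; Per1, which is also induced by activity, was at 153, 159 and 177 CPM ipsilaterally and 98.4, 100 and 100.4 CPM contralaterally (0.71 ± 0.08).

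Of 27 interferon-inducible genes and 13 STING pathway genes that passed the filter none was called in either direction, with medians of 0.28 and 0.17. With 2.56% of all genes tested called as rises, lists of this size with no call are near the background. Cmpk2 was at −0.12 ± 0.10, Ifit1 at −0.15 ± 0.35 and Isg15 at 0.42 ± 0.28. The kinase gene Tbk1 had 33.7, 31 and 34.1 CPM ipsilaterally and 35.4, 36.4 and 34.7 CPM contralaterally (−0.11 ± 0.08), and Irf3 was at 0.13 ± 0.15. The DNA sensor gene Cgas was at −0.78 ± 0.35 (adjusted p = 0.325). Ifnb1 had 0 counts in all 6 libraries, where a count of 3 would be 0.111, 0.117 and 0.377 CPM in ipsilateral libraries 1 to 3. Genes outside these lists that interferons can also induce were called, among them Cxcl10 and, chosen after its values were seen, Slfn2 (1.74 ± 0.20). Irf1, chosen after its values were seen, had 15.4, 10.3 and 13.9 CPM ipsilaterally and 5.28, 4.26 and 6.05 CPM contralaterally (1.34 ± 0.17, adjusted p = 0.000154); it answers to NF-kB as well as to interferons, and it overlaps Gm17334 on the opposite strand.

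**Figure D3:**
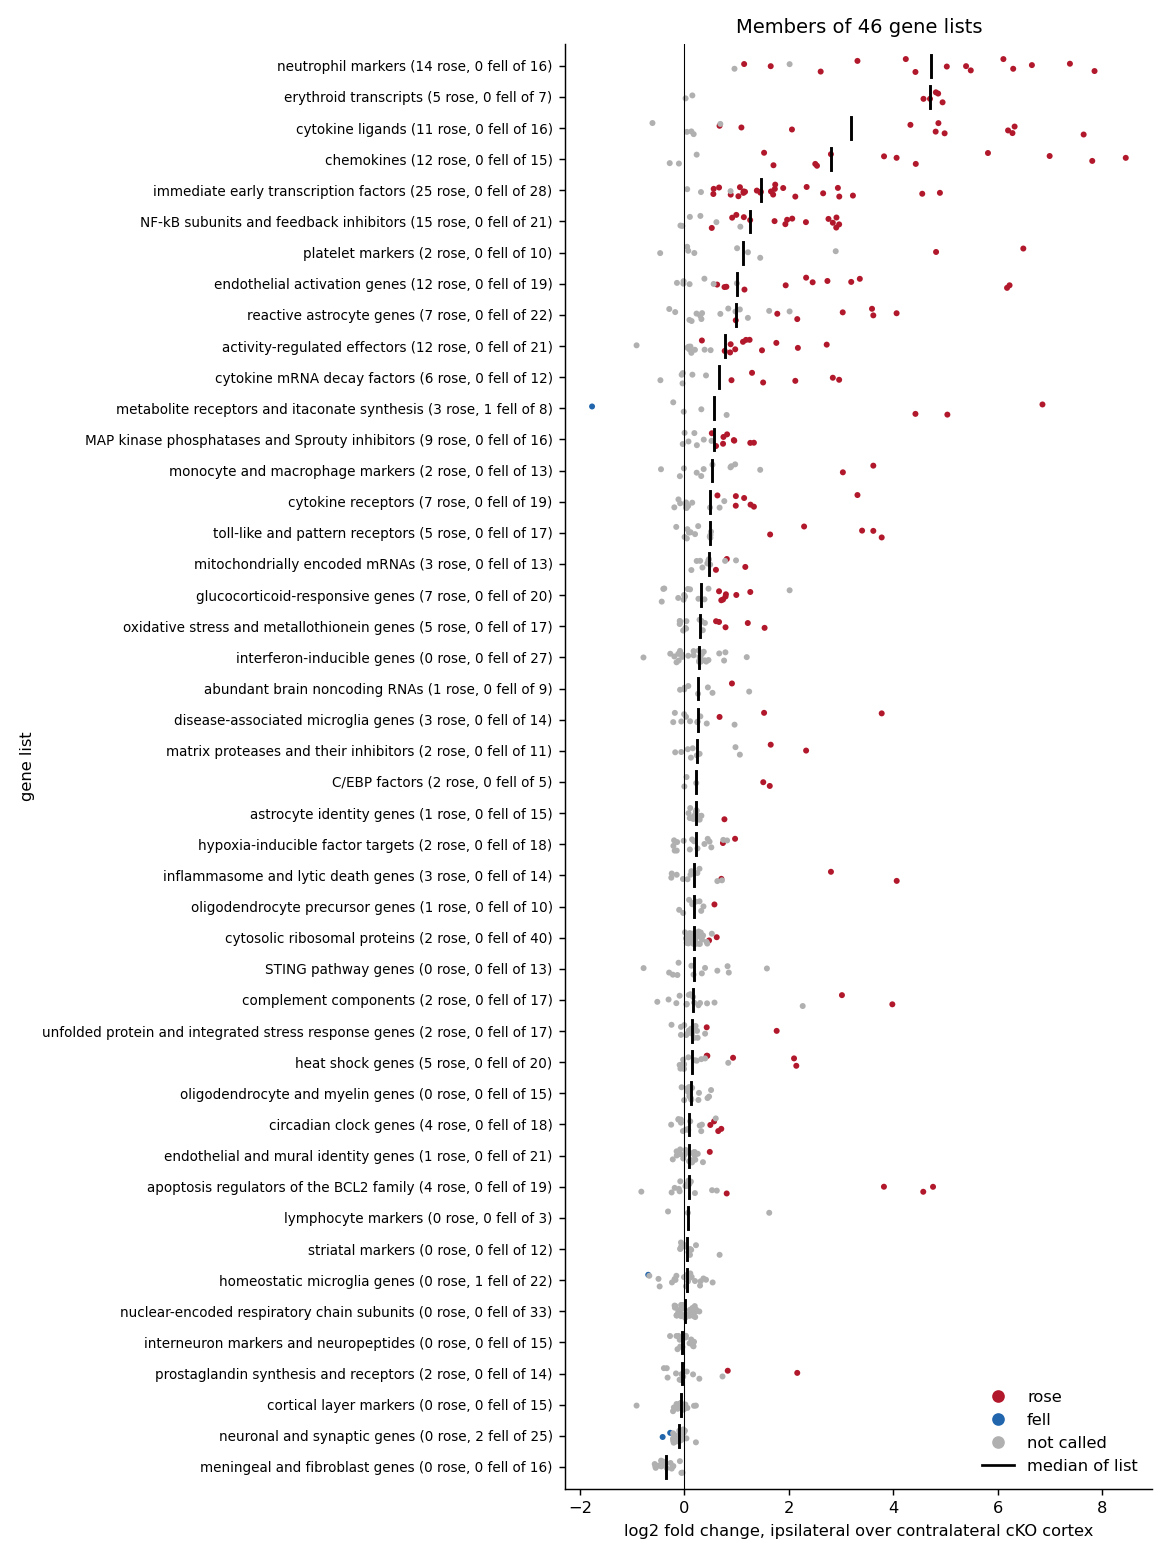
Each row is 1 of 46 gene lists, each point a member that passed the filter on low counts, and the x axis its log2 fold change, ipsilateral over contralateral; black bars are list medians, and lists share some members. Neutrophil, erythroid, cytokine and chemokine lists have the highest medians (4.72, 4.70, 3.19 and 2.80), and the meningeal and fibroblast list the lowest (−0.35), with no member above 0. Some neutrophil, cytokine and chemokine members passed the filter only through ipsilateral libraries. The order of these medians therefore depends in part on the filter.

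Messenger RNAs of the mitochondrial genome were all above 0 (13 of 13, median 0.47), and 3 of them rose. mt-Co2 had 883, 819.6 and 1121 CPM ipsilaterally and 528, 541 and 538 CPM contralaterally (0.81 ± 0.14), mt-Nd4l, whose exonic bases overlap mt-Nd4, rose by 1.17 ± 0.22, and mt-Cytb by 0.60 ± 0.13 (adjusted p up to 0.114 without contralateral library 1 or 3 or ipsilateral library 2). Genes of the mitochondrial genome took 6.20% ± 1.19 of counts in ipsilateral and 4.45% ± 0.279 in contralateral libraries (SD, n = 3 each; exact two-sided permutation p = 0.1, the smallest possible). As a share of TPM the sides overlapped, at 12% ± 1.84 in ipsilateral and 9.45% ± 0.878 in contralateral libraries (SD, n = 3 each; exact p = 0.2). None of 33 nuclear-encoded subunits of the respiratory chain was called (median 0.02). With 2.74% of all genes tested called in either direction, that is near the background. Of 40 cytosolic ribosomal protein genes all were above 0 with a median of 0.18, and 28 had no overlap between sides. Over all genes tested 48.6% were above 0, and 10.8% had all ipsilateral libraries above all contralateral ones. The 2 calls, Rps27 and Rps29, were lost without ipsilateral library 2 or 3 or contralateral library 1 or 2. Both were also lost with trends of GC content and transcript length removed, and with limma on TPM.

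Neuronal transcripts lay slightly below 0 as a group, with 2 falls, Snap25 and the tubulin gene Tubb3. Of 25 neuronal and synaptic genes 3 were above 0, 11 had all ipsilateral libraries below all contralateral ones, and the median was −0.10. Over all genes tested 48.6% were above 0, 11.1% had that arrangement, and the median was −0.01. Snap25, a membrane fusion protein of synapses, had 2938, 3070.3 and 2952 CPM ipsilaterally and 3689, 3621 and 3512 CPM contralaterally (−0.27 ± 0.06, adjusted p = 0.0300), a call that was lost without any single cKO library (highest adjusted p 0.143). The sodium channel subunit gene Scn4b (−0.56 ± 0.12), which is not on that list, fell as well, and its call was lost without contralateral library 1 or 2 or ipsilateral library 2 or 3 (highest adjusted p 0.0888). None of 15 cortical layer markers, 15 interneuron genes, 12 striatal markers or 15 oligodendrocyte genes was called in the fit without a block. With 2.74% of all genes tested called in either direction, lists of this size with no call are near the background. Mbp, the myelin basic protein gene, had 2075, 1850.2 and 2123 CPM ipsilaterally and 1654, 1489 and 1103 CPM contralaterally (adjusted p = 0.129, 0.0456 with DESeq2 and 0.0281 with the library number as a block), so that the sides did not overlap. All 16 meningeal and fibroblast genes were below 0 (median −0.35), and none was called. How far the share of meninges or white matter in each piece of tissue bears on these values was not tested.

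Tubulin genes split in 2 directions. The family was looked at after the falls had been seen, so its counts are a description. Of 16 alpha-, beta-, gamma-, delta- and epsilon-tubulin genes tested, apart from the platelet gene Tubb1, 5 fell and 3 rose. Those that fell were abundant. Tuba4a had 557, 556 and 613 CPM in ipsilateral libraries 1 to 3, against 728, 726 and 749 CPM in contralateral libraries 1 to 3. Tubb3, the neuronal beta-tubulin, had 283, 313 and 294 CPM ipsilaterally and 393, 374 and 421 CPM contralaterally. Tuba1b had 734, 743 and 709 CPM ipsilaterally and 921, 845 and 940.03 CPM contralaterally. The sides did not overlap for these 3 genes, which fell by 0.35, 0.42 and 0.31 on the log2 scale (SE 0.06, 0.08 and 0.07). Tubb4b (−0.32 ± 0.07) and Tubb5 (−0.33 ± 0.08) fell as well. The genes that rose were less abundant: Tuba1c had 16.8, 15.3 and 17.7 CPM ipsilaterally and 4.46, 6.18 and 6.86 CPM contralaterally (1.52 ± 0.14, adjusted p = 6e-06), Tubb6 rose by 1.08 ± 0.20 and Tubb2b by 0.41 ± 0.08. Tuba1c, Tubb6 and Tuba4a stayed called whichever library was left out. The call of Tubb3 was lost without contralateral library 3 or ipsilateral library 1, and that of Tubb2b without library 2 of either side (adjusted p up to 0.0633). Those of Tubb4b (contralateral 1 or 3, ipsilateral 2 or 3), Tuba1b (any cKO library other than contralateral 2) and Tubb5 (any cKO library) were lost at adjusted p up to 0.144. Tuba1a, the most abundant member at 999, 972 and 1082 CPM ipsilaterally and 1125, 1114 and 1149 CPM contralaterally, was at −0.15 ± 0.06 and was not called. None of the 8 called genes changed sign under any scaling or other setting tried. In wt cortex the same 8 genes had the same signs, with Tuba1c at 1.61 ± 0.14 and Tuba4a at −0.23 ± 0.06. Members of this family share sequence, so part of their reads was divided by RSEM, and Tuba4a overlaps Stk16 on the opposite strand.

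**Figure D4:**
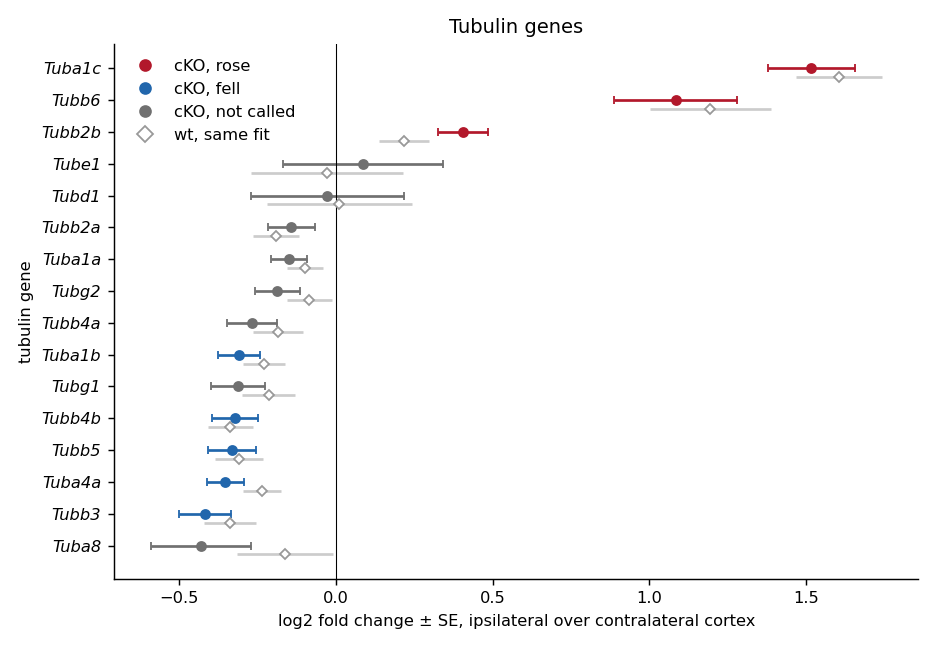
Circles are log2 fold changes of 16 tubulin genes in cKO cortex, ipsilateral over contralateral, and open diamonds below them the values in wt cortex from the same fit; bars are SE. Tuba1c, Tubb6 and Tubb2b lie right of 0 in both genotypes, and Tubb3, Tuba4a, Tubb5, Tubb4b and Tuba1b left of it.

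The 12 largest falls by the rule for named genes were Gm13610, Alx4, A630072M18Rik, Abi3, Gm20388, Tmem119, Pars2, Gins2, Scn4b, AC156546.1, Zfp946 and Tubb3. Gm13610, an antisense RNA that overlaps Prrc2b, had 0, 0 and 0.373 CPM ipsilaterally and 3.29, 4.86 and 1.33 CPM contralaterally, and Alx4, a homeobox gene, had 1.44, 0.801 and 1.12 CPM ipsilaterally and 2.44, 2.77 and 2.62 CPM contralaterally; the sides did not overlap for either gene. Of these 12 calls only that of Gm20388 held without each library in turn; the highest adjusted p of Gm13610 was 0.236 and that of Alx4 0.170, each lost without contralateral library 1 or 2 or ipsilateral library 2 or 3 and others. Gm20388, a gene model that shares exonic bases with Galnt2 and Usp10 on its own strand, had 32.6, 22.5 and 20.6 CPM ipsilaterally and 42.2, 45.5 and 41.5 CPM contralaterally (−0.74 ± 0.13). Galnt2, a glycosyltransferase gene, was called in the other direction, with 22.6, 32 and 45.7 CPM ipsilaterally and 16.3, 13.4 and 19.6 CPM contralaterally (0.99 ± 0.20, adjusted p = 0.0120, and 0.0714 at most without contralateral library 1 or 2). RSEM divides reads between such genes, so neither value stands alone. Some rises outside the lists, chosen after their values were seen, were among the firmest of all. The histone demethylase gene Kdm6b had 68.3, 68.5 and 63.8 CPM ipsilaterally and 16.8, 16.3 and 17.8 CPM contralaterally (1.98 ± 0.10, adjusted p = 2.64e-08). The transporter gene Slc15a3 had 11.4, 10.7 and 8.58 CPM ipsilaterally and 1.17, 1.49 and 1.38 CPM contralaterally (2.95 ± 0.16). Pleckstrin, Plek, rose by 2.30 ± 0.13, the kinase gene Pim1 by 1.99 ± 0.17, the ephrin receptor gene Epha2 by 2.55 ± 0.20 and the small GTPase gene Rab20 by 4.11 ± 0.36. All 6 stayed called without each library in turn. Kif5a, a motor of axonal transport, was the most abundant nuclear gene among the rises that were looked at, with 5191, 5755 and 6179 CPM ipsilaterally and 4277, 4174 and 3839.7 CPM contralaterally (0.48 ± 0.10, adjusted p = 0.0124); the call was lost without ipsilateral or contralateral library 3 (adjusted p at most 0.0677).

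Called genes in both directions had a shorter median span and fewer exons than all genes tested. The median longest transcript was 2963 bases in rises and 3244.5 bases in falls, against 3226 bases over all genes tested. The median gene span was 11.6 kb in rises, 8.14 kb in rises of at least 4-fold and 14.5 kb in the 30 falls, against 21.6 kb over all genes tested. The median number of exons was 4 in rises and 4 in falls, against 7 over all genes tested. Of rises of at least 4-fold 47.5% had 3 exons or fewer, and of falls 33.3%, against 28.4% of all genes tested. Median GC content of the longest transcript was 51.5% in rises, 54% in falls and 49.7% in all genes tested. RefSeq promoter windows were matched for 327 of the 431 rises and 12094 of the 16836 genes tested. The AP-1 site TGANTCA, read on both strands, was in 11.3% of windows of rises and 17.7% of windows of rises of at least 4-fold, against 5.28% of windows of all genes tested. The cAMP response element TGACGTCA was in 4.41%, 3.54% and 2.82% of these windows, and the CArG box, the target of serum response factor, in 2.94%, 5.31% and 1.35%. The looser pattern of CC and GG with any 6 bases between them, which includes the CArG box, was in 82.1%, 69% and 85.1%. These shares describe letters in the windows and carry no test.

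Set against wt cortex, the response had the same direction throughout. All 431 rises and all 30 falls had the same sign in wt. Of the 431 rises 322 were also called in wt (74.7% of the cKO rises and 70.0% of the 460 wt rises, which were 2.73% of genes tested, or 2.92% with falls), and of the 30 falls 7 were. The test of the difference between the responses called none of 16836 genes with edgeR (smallest adjusted p 0.99987); 381 genes, 2.26%, were at an unadjusted p below 0.05. DESeq2 called none and limma on TPM called 1. Of the cKO rises 74.2% were larger in cKO than in wt, but of the wt rises 45.9% were, and each list of genes was picked in its own genotype. The genes with the smallest p of the difference were mt-Atp6, Gm20427, Msr1, Eaf2 and mt-Co2. For mt-Co2 the response was 0.81 ± 0.14 in cKO and 1.53 ± 0.14 in wt (unadjusted p = 0.00249), and for mt-Atp6 0.24 ± 0.15 in cKO and 1.10 ± 0.15 in wt (unadjusted p = 0.000954). Emp1 rose by 3.59 ± 0.22 in cKO and 2.62 ± 0.21 in wt (unadjusted p of the difference 0.00647).

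**Figure D5:**
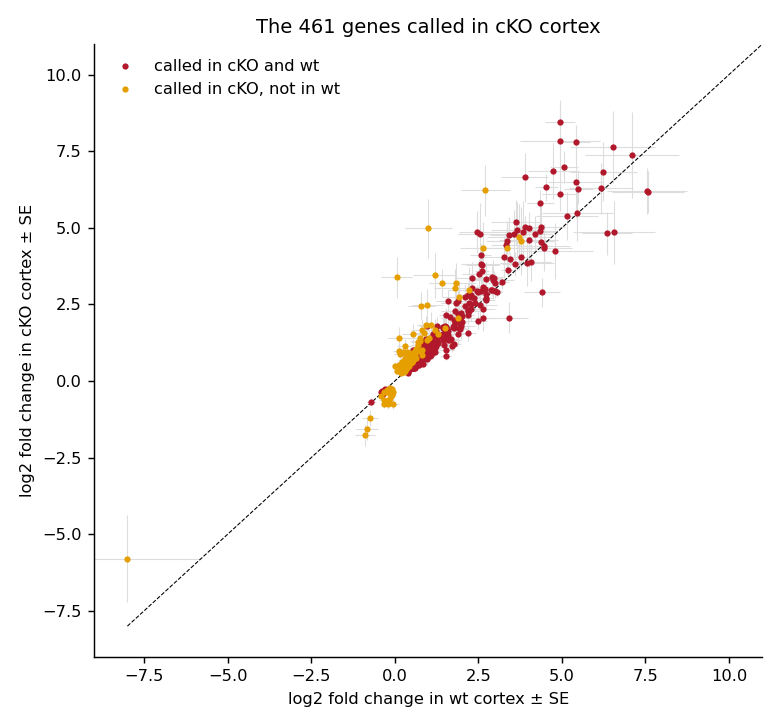
Each point is 1 of the 461 genes called in cKO cortex, with its log2 fold change in wt cortex on the x axis and in cKO cortex on the y axis, each with its SE; the dashed line marks equal responses. All points lie in the quadrants of equal sign, and 322 rises and 7 falls were also called in wt.

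Ipsilateral library 3 stood apart in some abundant transcripts. The noncoding RNA Bc1 had 321, 499 and 92.5 CPM in ipsilateral libraries 1 to 3, against 279.9, 175 and 313 CPM in contralateral libraries 1 to 3. CT010467.1, annotated as ribosomal RNA, had 16059, 27020.0 and 2311 CPM ipsilaterally and 13901, 8769.9 and 15937 CPM contralaterally. Lars2, a mitochondrial tRNA synthetase gene, had 1721, 2739 and 549.7 CPM ipsilaterally and 1479, 1359.5 and 1788 CPM contralaterally. All 3 were lowest in ipsilateral library 3 by a wide margin, and none was called. Library 3 against library 3, 428 of the 431 rises and all 30 falls had the direction of the fit, with a median rise of 0.92, against 1.10 and 1.15 for numbers 1 and 2. Both libraries numbered 3 were in the fit that called these genes, so the shared direction is no independent check of library 3. Without ipsilateral library 3, 369 of the 431 rises and 9 of the 30 falls were still called. With both libraries numbered 3 left out, a setting chosen after the data were seen, 325 and 4 were.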

How the data were processed

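Messenger RNA of cortical tissue was sequenced from stranded TruSeq libraries, per the labels' protocols. Per the submitters' processing notes the authors used Trim Galore 0.6.4, STAR 2.7.1a, RSEM 1.2.28, DESeq2 1.36.0 and build mm10; annotation and strand setting are not given in the sources used here. The authors deposited RSEM's estimated counts as whole numbers, and TPM, for 55487 genes. RSEM divides reads between near-identical genes.

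The estimated counts were fitted with edgeR 4.0.16 (R 4.3.3): filterByExpr (minimum count 10, total 15) kept 16836 genes, TMM scaling, 1 quasi-likelihood model over the 4 groups of 3 libraries, Benjamini-Hochberg adjustment, threshold 0.05. The script was tested on simulated data. Single sums used exact two-sided permutation tests. Where 1 to 3 contralateral counts were found, a ratio of pooled counts with its 95% interval is given, and where 0, a bound at 3 counts; both cover counting error only. The depth, 7958931 to 33567194 counts per cKO library, limits low genes most in ipsilateral library 3, where 3 counts are 0.377 CPM. Gene models were matched to GENCODE M21 by identifier (99.5%).

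Named genes were Tmem173 and Cx3cr1, the 12 largest rises and falls among non-overlapping genes averaging 1 CPM or more, up to 4 called members per list (the 3 highest where none was called), and the 5 smallest p of the difference from wt; further called list members and others were chosen after their values were seen, and a few genes are not reported here. The members and the 46 lists were chosen with earlier results of these data known; 823 of 828 entries matched and 768 passed the filter. Alternatives were DESeq2 1.42.0, limma 3.58.1 (voom, and log2(TPM + 1)), other scalings and filters, thinned counts, GC and length trends, a replicate block and leaving out libraries.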

Additional observations from a re-analysis of the deposited data

How the results depend on the processing

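No gene called in cKO cortex reversed its sign under any setting tried. The 431 rises became 856 with no filter on low counts, 171 with limma on log2(TPM + 1), and 267 to 422 when single cKO libraries were left out, or 399 to 521 for wt libraries. The 30 falls became 112 with no filter, 113 with DESeq2, 3 with limma on TPM, 303 with GC and length trends removed, 6 to 22 without single cKO libraries and 22 to 58 without single wt libraries. Leaving out both libraries numbered 3, chosen after the data were seen, gave 358 rises and 12 falls. For the difference from wt, no filter gave 72 genes and limma on TPM 1, against none. Labels do not say that library numbers mark the same animal. Over all 16836 genes the same-numbered cKO libraries deviated together with correlations of 0.0705, 0.0920 and 0.0568. These were below 0.1, so the numbers were not taken to pair libraries. Correlations between different numbers ran from −0.0725 to −0.00116, so each library correlated best with its own number. Over the 9866 genes above 10 CPM, a minimum picked after several had been seen, the same-numbered correlations were 0.248, 0.311 and 0.235. There too each library correlated best with its own number. Pairing by animal therefore remains possible, and the main p values do not take it into account. The replicate block gave 490 rises and 43 falls, sharing 396 and 24; with GC and length trends also removed 639 and 485, and on the 6 cKO libraries alone 734 and 155. Thinned to the shallowest library, 321 rose and 25 fell, 295 and 17 of them shared. Causes of these changes were not tested. Depth limits low genes most in ipsilateral library 3.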
